A study of Setaria viridis with 22 samples.

Results

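*SvBM1* (Sevir.1G056800) and *SvBM3* (Sevir.6G053300) are 2 of the 35214 genes in the expression table of early green millet (*Setaria viridis*) inflorescences. They were chosen because the study labels them among the inflorescence genes with more transcript in the *spp1* mutant, a labelling that rested on the same libraries. Their genotype differences at 12 and 14 days after sowing (DAS) are therefore given as a description and support nothing. Changes between stages were not used directly by the choice, but they share the libraries of 12 and 14 DAS with it. The same holds where the mutant is set beside A10.1 of the stage before. The genotype comparison at 10 DAS was taken as the one least touched by the choice.

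Both genes are named after the *brown midrib* genes of maize, whose mutants have reddish-brown leaf midribs and altered lignin. In maize, BM1 is a cinnamyl alcohol dehydrogenase, which makes the last reduction to the monolignols, the building blocks of lignin. BM3 is a caffeic acid O-methyltransferase, which adds the methyl group needed for syringyl units of lignin. Lignin is laid down mainly in the secondary walls of xylem and fibre cells. In the annotation given by the authors, *SvBM1* was described as probable cinnamyl alcohol dehydrogenase-like with a best Arabidopsis hit to CAD4, and *SvBM3* as caffeic acid 3-O-methyltransferase-like with a best hit to OMT1.

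RNA came from whole inflorescences, dissected from chamber-grown seedlings, and each library pooled 10 to 30 of them. The *spp1* plants carry a mutation in *SPARSE PANICLE1*, an auxin influx carrier gene of the AUX1 type, and gave 4, 3, and 4 libraries for the stages of 10, 12, and 14 DAS. The A10.1 plants are the wild-type accession in which that mutation was isolated, and gave as many libraries per stage. The mutant is a single line.

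Mapped first reads numbered 10.4 M to 24.3 M per library (M for mega), or 86.69% to 93.22% of the reads. The transcript of *SPP1* (Sevir.5G392400) was detected in all libraries of the mutant. At 10 DAS it had 16.8 to 29.9 FPKM in *spp1* and 21.2 to 38.1 FPKM in A10.1, which overlapped. The *spp1* libraries all lay below the A10.1 libraries at 12 DAS, with 16.6 to 21.6 FPKM in *spp1* and 24.6 to 29.2 FPKM in A10.1, and at 14 DAS, with 16.5 to 28.3 FPKM in *spp1* and 30.1 to 36.1 FPKM in A10.1. The A10.1 reads were also part of an earlier deposit, and whether the libraries of both genotypes were made together is not given in the sources used here; if they were not, preparation and genotype cannot be told apart. Replicate 4 of *spp1* at 14 DAS was lowest both in mapped reads and in percent mapped. It stood apart on the second principal component of the genes averaging 1 FPKM or more, at -58.2, where no other library lay beyond 26.4 from 0. The tissue was also checked against 5 genes with maize symbols of inflorescence development (*ra1*, *ra2*, *ra3*, *tsh1*, *ba1*). Their summed level was 103 to 347 FPKM over the 14 DAS libraries and 9.35 to 25.4 FPKM over the 10 DAS libraries, and *ra1* was listed at 0 in all libraries of 10 and 12 DAS.

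Levels are in FPKM, fragments scaled to transcript length and to the size of the library, so they may be compared between genes. *SvBM1* averaged 38.2 ± 9.14, 29.4 ± 6.83, and 21.2 ± 2.22 FPKM in *spp1* at 10, 12, and 14 DAS (SD, n = 4, 3, and 4). The A10.1 means were 36.5 ± 13.9, 19.5 ± 5.17, and 16.9 ± 3.32 FPKM. *SvBM1* thus lay above 72.4% to 88.2% of the genes with any signal, depending on the group.

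*SvBM3* was the lower of the pair in every group. It averaged 30.0 ± 5.62, 24.0 ± 4.64, and 16.4 ± 4.17 FPKM in *spp1* at 10, 12, and 14 DAS, and 24.9 ± 7.0, 15.3 ± 2.99, and 9.44 ± 1.79 FPKM in A10.1. It lay above 59.99% to 85.3% of the genes with any signal.

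By mean level both genes had the same order of the 6 groups, with *spp1* at 10 DAS highest, then A10.1 at 10 DAS, *spp1* at 12 DAS, *spp1* at 14 DAS, A10.1 at 12 DAS, and A10.1 at 14 DAS lowest. Neighbouring groups in this order overlapped in their libraries, with the exception of the last step for *SvBM3*, where the A10.1 libraries of 14 DAS all lay below those of 12 DAS. In both genotypes the mean was lower at each later stage, and at each stage the *spp1* mean was above the A10.1 mean. Because each library is a whole inflorescence, fewer cells of a type and less transcript per cell cannot be told apart.

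**Figure D1:**
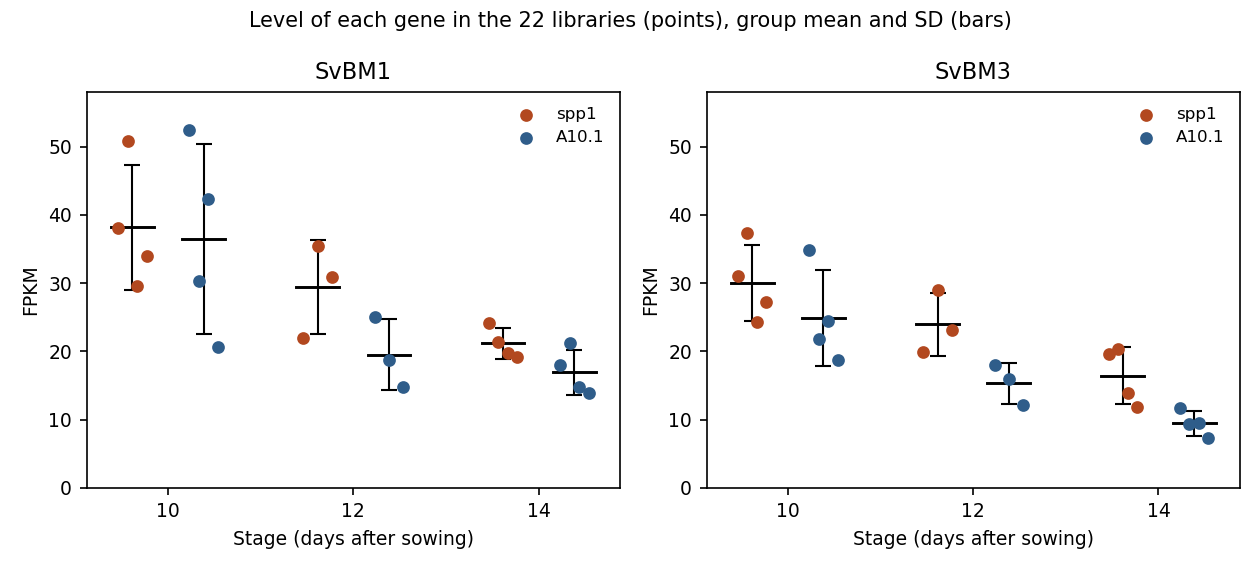
FPKM of *SvBM1* (left) and *SvBM3* (right) in each of the 22 libraries by stage in days after sowing, *spp1* in orange and A10.1 in blue, with the group mean and SD in black. At 14 DAS the 4 *spp1* libraries of *SvBM3* lay between 11.9 and 20.3 FPKM, all above the 4 A10.1 libraries, whereas those of *SvBM1* overlapped.

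At 10 DAS the genotypes were not separated in either gene. *SvBM1* had 38.1, 50.8, 29.6, and 34.03 FPKM in replicates 1 to 4 of *spp1*, against 52.5, 30.3, 42.4, and 20.6 FPKM in A10.1. The highest and the lowest library of the stage were both A10.1, so the *spp1* values fell inside the A10.1 range. The difference was 0.12 on the log2(FPKM + 1) scale (SE 0.27, 95% interval -0.48 to 0.72, adjusted p = 0.971 by limma). Its sign turned to -0.12 without replicate 4 of A10.1 and to -0.03 without replicate 2 of *spp1*.

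*SvBM3* had 31.0, 37.4, 24.3, and 27.3 FPKM in *spp1* at 10 DAS, against 34.8, 21.8, 24.4, and 18.7 FPKM in A10.1. Here 3 of 4 *spp1* libraries were above the A10.1 mean, and the groups overlapped. The log2 difference was 0.28 (SE 0.19, 95% interval -0.15 to 0.70, adjusted p = 0.960). Neither gene passed the adjusted p of 0.05, which 0.0279% of all tested genes did at 10 DAS. The intervals at 10 DAS reach up to 0.72 for *SvBM1* and 0.70 for *SvBM3*, so a difference of 0.57 or 0.61, as at 12 DAS, lies within them.

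At 12 DAS, one of the stages the choice rested on, *SvBM1* had 21.98, 35.4, and 30.9 FPKM in *spp1* (replicates 1, 2, and 4), against 24.98, 18.8, and 14.7 FPKM in A10.1. Replicates 2 and 4 of *spp1* exceeded the highest A10.1 library, and replicate 1 lay inside the A10.1 range. The log2 difference was 0.57 (SE 0.21, 95% interval 0.08 to 1.06), or 1.49-fold, with an adjusted p of 0.438 over all genes.

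*SvBM3* had 19.9, 29.0, and 23.1 FPKM in *spp1* at 12 DAS, against 18.0, 15.9, and 12.1 FPKM in A10.1. The groups did not overlap, as in 7.37% of all tested genes that lay wholly higher in *spp1* at this stage. The log2 difference was 0.61 (SE 0.17, 95% interval 0.22 to 1.01), or 1.53-fold, with an adjusted p of 0.238. An adjusted p under 0.05 was reached by 0.288% of the genes at 12 DAS, neither of the pair among them. The paper used another test (Cuffdiff, q under 0.05) and reports both genes as significantly higher in *spp1*. It lists 810 called genes at 12 DAS, against 51 by limma here. Missing the threshold in limma is therefore no test of that call.

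At 14 DAS *SvBM1* had 24.2, 21.4, 19.8, and 19.2 FPKM in *spp1*, against 18.0, 21.2, 14.8, and 13.9 FPKM in A10.1. All 4 *spp1* libraries were above the A10.1 mean, but replicate 2 of A10.1 lay above replicates 3 and 4 of *spp1*. The log2 difference was 0.32 (SE 0.14, 95% interval 0.01 to 0.63), or 1.25-fold, with an adjusted p of 0.212.

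*SvBM3* had 19.6, 20.3, 13.9, and 11.9 FPKM in *spp1* at 14 DAS, against 11.7, 9.33, 9.48, and 7.29 FPKM in A10.1. The lowest *spp1* library, replicate 4, was the one that stands apart, and it lay just above the highest A10.1 library. Wholly higher in *spp1* were 4.09% of all tested genes at this stage. The log2 difference was 0.72 (SE 0.19, 95% interval 0.30 to 1.14), or 1.65-fold, with an adjusted p of 0.0864, where 1.93% of the genes passed 0.05 in either direction. Without replicate 4 of *spp1* the difference was 0.86 with an adjusted p of 0.0322, and with median ratio scaling of the libraries it was 0.82 with an adjusted p of 0.0299. That scaling moved the median of all genes at 14 DAS by about the same amount, to 0.00 from -0.10, so the gain of *SvBM3* under it was about the size of that shift. Without the same replicate *SvBM1* had a difference of 0.36 (adjusted p = 0.219).

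The difference between genotypes was not shown to change with stage for either gene. In the F test of the interaction over all 22 libraries, F was 0.83 for *SvBM1* (adjusted p = 0.943) and 1.353 for *SvBM3* (adjusted p = 0.939), and 0.0615% of the genes passed. The genotype difference at 14 DAS minus that at 10 DAS was 0.20 for *SvBM1* (95% interval -0.49 to 0.89) and 0.45 for *SvBM3* (95% interval -0.14 to 1.03).

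Both genes fell between 10 and 14 DAS in both genotypes, a change that the choice of the genes did not use directly. The 14 DAS libraries entered both the choice and this change. In *spp1*, *SvBM1* fell to 0.575 of its 10 DAS level, a log2(FPKM + 1) difference of -0.80 (SE 0.17, adjusted p = 0.00761). The levels in such fractions, here and below, are geometric means of FPKM + 1. *SvBM3* in *spp1* fell to 0.556 of its 10 DAS level, a difference of -0.85 (SE 0.19, adjusted p = 0.00839). The 14 DAS libraries of both genes all lay below those of 10 DAS, as in 11% of all tested genes. In *spp1* 18.2% of the genes passed between these stages, 1808 of 17902 as lower and 8.11% as higher. Without replicate 4 of 14 DAS the differences were -0.76 (adjusted p = 0.0142) and -0.71 (adjusted p = 0.0138).

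In A10.1, *SvBM1* fell to 0.501 of its 10 DAS level by 14 DAS, a log2 difference of -0.999 (SE 0.25, adjusted p = 0.00657). The groups overlapped only in that replicate 2 of 14 DAS, at 21.2 FPKM, lay above replicate 4 of 10 DAS, at 20.6 FPKM. *SvBM3* fell to 0.409 of its 10 DAS level, a log2 difference of -1.29 (SE 0.18, adjusted p = 0.000178), and its libraries at 10 and 14 DAS did not overlap. Lower with an adjusted p under 0.05 were 16.9% of all tested genes in A10.1 between these stages, and 14% lay wholly lower. All 4 of these falls passed the threshold in each alternative setting and without each library in turn.

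The steps of 2 days were smaller, and in the fit of each genotype none passed. From 10 to 12 DAS the log2 difference of *SvBM1* was -0.36 in *spp1* (adjusted p = 0.291) and -0.82 in A10.1 (adjusted p = 0.0655). That of *SvBM3* was -0.31 in *spp1* (adjusted p = 0.375) and -0.65 in A10.1 (adjusted p = 0.0517). Lower at this step with an adjusted p under 0.05 were 1.42% of the genes in *spp1* and 6.37% in A10.1. The A10.1 libraries of *SvBM3* did not overlap at this step, as in 9.09% of the genes that lay wholly lower. Without replicate 4 of 10 DAS, the lowest A10.1 library of that stage for both genes, the A10.1 differences passed, at -1.06 for *SvBM1* (adjusted p = 0.00741) and -0.77 for *SvBM3* (adjusted p = 0.0186). That of *SvBM1* also passed when all 22 libraries were fitted together (adjusted p = 0.0368), and that of *SvBM3* with median ratio scaling (adjusted p = 0.0349) and with a filter at 5 FPKM (adjusted p = 0.0494).

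From 12 to 14 DAS the log2 difference of *SvBM1* was -0.44 in *spp1* (adjusted p = 0.385) and -0.18 in A10.1 (adjusted p = 0.743). That of *SvBM3* was -0.54 in *spp1* (adjusted p = 0.290) and -0.65 in A10.1 (adjusted p = 0.0896). Lower at this step with an adjusted p under 0.05 were 0.877% of the genes in *spp1* and 2.74% in A10.1. The A10.1 libraries of *SvBM3* did not overlap here either, as in 8.56% of the genes, and without replicate 1 of 10 DAS, which enters the spread of the fit, the adjusted p was 0.0405. The interval of *SvBM1* in A10.1, -0.77 to 0.41, held 0. The 3 stage comparisons of a genotype share libraries, and those of 12 and 14 DAS also entered the choice of the genes.

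**Figure D2:**
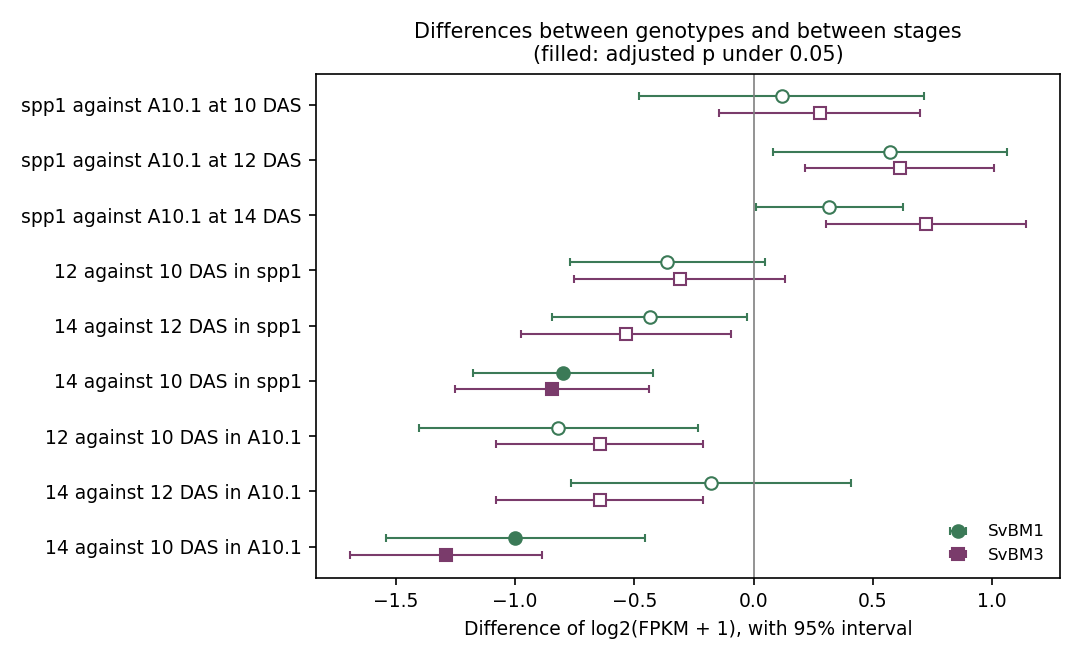
Differences of log2(FPKM + 1) for *SvBM1* (circles) and *SvBM3* (squares) with 95% intervals, for *spp1* minus A10.1 at each stage and for the later minus the earlier stage within each genotype. Filled symbols mark an adjusted p under 0.05, which both genes reached between 10 and 14 DAS in *spp1* (-0.80 and -0.85) and in A10.1 (-0.999 and -1.29).

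The mutant was also set beside A10.1 of the stage before, and no difference of either gene passed. *SvBM1* averaged 21.2 FPKM in *spp1* at 14 DAS and 19.5 FPKM in A10.1 at 12 DAS, a log2 difference of 0.14 (95% interval -0.25 to 0.52, adjusted p = 0.845). *SvBM3* averaged 16.4 and 15.3 FPKM in the same groups, a difference of 0.08 (95% interval -0.40 to 0.55, adjusted p = 0.919). Between these groups 0.636% of the genes passed. For *spp1* at 12 DAS against A10.1 at 10 DAS the differences were -0.25 (95% interval -0.89 to 0.40) and -0.03 (95% interval -0.49 to 0.42), with adjusted p of 0.699 and 0.948, and 2.54% of the genes passed. Genotype and stage cannot be told apart in these comparisons, and the groups overlapped in each. Their libraries of 12 and 14 DAS also entered the choice of the genes.

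The first principal component of the genes averaging 1 FPKM or more over the 22 libraries ordered the stages. On it, the *spp1* libraries of 12 and 14 DAS lay nearer to the 10 DAS libraries than the A10.1 libraries of the same stage did. The *spp1* libraries lay at -47.2 to -32.5, -10.7 to 4.26, and 13.1 to 29.9 at the 3 stages in order, and A10.1 libraries at -41.1 to -24.3, 14.2 to 16.5, and 36.8 to 50.3. Over the 22 libraries this position had a Pearson r of -0.81 with *SvBM1* and -0.84 with *SvBM3*, and r of -0.23 and 0.07 once each group mean was subtracted. The libraries of a stage share that stage, so these coefficients are descriptions. The part of this displacement in the genotype differences of the 2 genes was not tested.

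*SvBM1* and *SvBM3* varied together from library to library. Over the 22 libraries the Pearson r of log2(FPKM + 1) was 0.91 and Spearman's rho 0.93, and leaving out any 1 library kept r between 0.90 and 0.94. After subtraction of the group means, r was still 0.82, so that replicates high in one gene tended to be high in the other. Replicate 2 of *spp1* was the highest of its group for both genes at 10 and 12 DAS, and in A10.1 replicate 1 was highest at 10 and 12 DAS. At 14 DAS the genes did not share a highest library. In *spp1* it was replicate 1 for *SvBM1* and replicate 2 for *SvBM3*, and in A10.1 replicate 2 for *SvBM1* and replicate 1 for *SvBM3*. The points share stage, library, and depth, so r is a description. Among 17895 other genes at or above an average of 1 FPKM, *SvBM3* ranked 17th by r with *SvBM1*, and *SvBM1* ranked 60th by r with *SvBM3*.

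The ratio of *SvBM1* to *SvBM3* within a library was above 1 in all 22 libraries, with a mean of 1.402 and a range of 1.06 to 2.27. At 10, 12, and 14 DAS the *spp1* mean was 1.26 ± 0.0657, 1.22 ± 0.116, and 1.33 ± 0.242, and that of A10.1 was 1.44 ± 0.263, 1.26 ± 0.110, and 1.82 ± 0.344 (SD, n = 4, 3, and 4). The ratio was highest in A10.1 at 14 DAS, at 1.54, 2.27, 1.56, and 1.90 in replicates 1 to 4, against 1.23, 1.06, 1.43, and 1.62 in *spp1*. Replicate 4 of *spp1* lay inside the A10.1 range, so the groups overlapped.

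**Figure D3:**
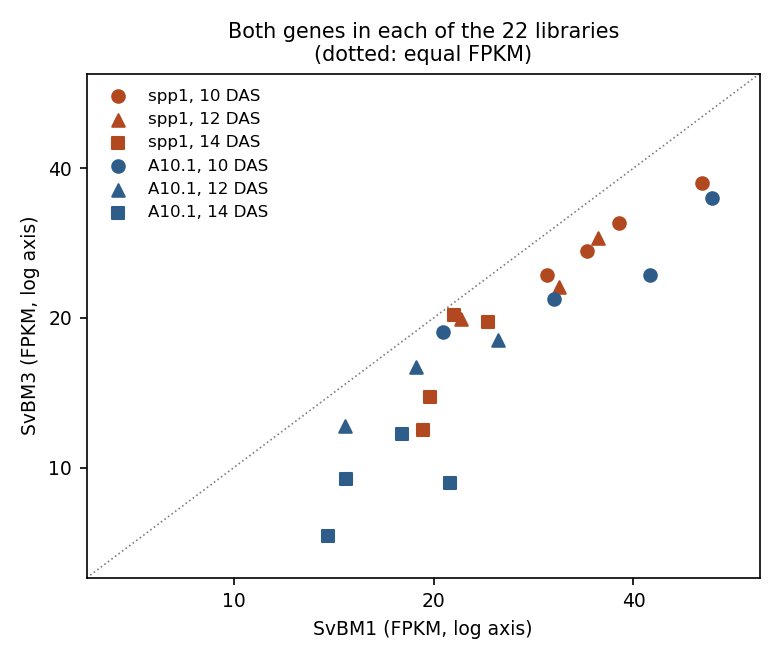
FPKM of *SvBM3* against *SvBM1* in each of the 22 libraries, both on log axes, with genotype by colour, stage by symbol, and equal FPKM as a dotted line. All libraries lie below the line, with a ratio of 1.06 to 2.27, and the A10.1 libraries of 14 DAS hold the lowest *SvBM3* values, 7.29 to 11.7 FPKM.

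The 5 genes most like each of the pair were taken by Pearson r over the 22 libraries. For *SvBM3* they were Sevir.7G167500 (r = 0.96, leucine-rich repeat family), Sevir.3G068700 (r = 0.96, xylem cysteine proteinase 2-like), Sevir.3G112500 (r = 0.96, acid phosphatase family), Sevir.1G143300 (r = 0.96, uncharacterized), and Sevir.9G081000 (r = 0.95, gibberellin-regulated family). The hit of Sevir.3G068700, XCP1, is a protease of xylem vessels in Arabidopsis. For *SvBM1* they were Sevir.5G063400 (r = 0.94) and Sevir.1G297600 (r = 0.93), both without an annotation here, Sevir.6G026500 (r = 0.93, with a best hit to DMR6), Sevir.1G034100 (r = 0.92, a tetraspanin), and Sevir.4G040800 (r = 0.92, anthocyanidin 3-O-glucosyltransferase-like). These names depend on the measure, since by Spearman's rho 0 of the 5 genes for *SvBM1* and 1 of the 5 for *SvBM3* were again among the first 5.

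Other genes of the lignin precursor pathway were found by their best Arabidopsis hit in the annotation, which covers the 2952 genes that the authors called at 1 or more stages, 8.383% of the table. That list was thus selected on these libraries and is not independent evidence of a direction between genotypes or between stages. It held 15 genes besides the pair. They are 5 with a hit to phenylalanine ammonia-lyase (PAL), which opens the pathway, 2 to cinnamate 4-hydroxylase (C4H), which makes the next step, 2 to hydroxycinnamoyltransferase (HCT), 1 to caffeoyl-CoA O-methyltransferase (CCoAOMT), and 5 to the OMT1 hit of *SvBM3*. Of the last 5, 4 are described as probable inactive methyltransferases, and the other, Sevir.9G250900, as 5-pentadecatrienyl resorcinol O-methyltransferase-like. The CCoAOMT hit, Sevir.6G204900, is described as tricin synthase 1-like, and 1 of the HCT hits, Sevir.1G356300, as a dehydrogenase/reductase. The role of all these genes in lignin is unsure. The sharing of reads between such related genes was not tested.

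These genes lay higher in *spp1* like the pair, in 14 of 15 at 10 DAS and 15 of 15 at 12 and 14 DAS, against 42.5%, 49.6%, and 35.4% of all tested genes. Their median log2 differences were 0.28, 0.53, and 0.52 at the 3 stages, beside -0.02, 0.00, and -0.10 over all genes. With an adjusted p under 0.05, 0 of 15 passed at 10 and at 12 DAS in limma, whereas 3 and 13 had an unadjusted p under 0.05, as did 4.16% and 9.05% of all genes. Of the 15, 6 passed at 14 DAS, all higher, beside 0.68% of all genes. *SvBM1* and *SvBM3*, at 0.32 and 0.72 at 14 DAS, lay on either side of that median. The count at 14 DAS depended on single libraries, being 2 when A10.1 replicate 1 was left out, and 3 when any of A10.1 replicates 2 and 4 or *spp1* replicates 1 and 3 was.

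Among the PAL genes Sevir.7G178200 had the largest genotype difference at 14 DAS, with 6.83 ± 0.91 FPKM in *spp1* and 2.86 ± 0.36 FPKM in A10.1 (log2 difference 1.02, adjusted p = 0.00536). Its neighbour by number, Sevir.7G178300, was also higher in *spp1*, by 0.67 (adjusted p = 0.0327). For Sevir.1G245000 and Sevir.1G245100 the differences were 0.52 and 0.20, which did not pass. By pattern Sevir.7G178200 ranked 26th with *SvBM1* (r = 0.90) and 57th with *SvBM3* (r = 0.91), and other genes of the list ranked ahead of it. Another PAL hit ranked 21st with *SvBM1*, and Sevir.1G356300 and Sevir.3G295500 ranked 53rd and 56th with *SvBM3*.

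The C4H gene Sevir.3G295500 was higher in *spp1* at 14 DAS, with 58.7 ± 5.35 FPKM in *spp1* against 40.2 ± 4.25 FPKM in A10.1 (log2 difference 0.54, adjusted p = 0.0337). The lowly expressed second C4H hit, Sevir.5G366500, was higher in *spp1* by 0.81 (adjusted p = 0.0334). This gene and Sevir.7G178300 are under the mean of 5 FPKM used for naming and are given because they passed. Of the HCT hits, Sevir.1G356300 had 113 ± 9.18 FPKM in *spp1* and 65.5 ± 6.36 FPKM in A10.1 at 14 DAS (log2 difference 0.78, adjusted p = 0.00728). The other, Sevir.7G164100, had a log2 difference of 0.75 with a wide spread in *spp1*, 26.9 to 81.0 FPKM, and did not pass.

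The CCoAOMT hit Sevir.6G204900 had 7.12 ± 3.18 FPKM in *spp1* and 6.30 ± 1.03 FPKM in A10.1 at 14 DAS, a difference of 0.08 that did not pass. Of the genes sharing a hit with *SvBM3*, Sevir.8G211600 was higher in *spp1* at 14 DAS, by 0.68 (adjusted p = 0.0148). The differences of Sevir.8G211900, Sevir.8G220300, Sevir.8G220700, and Sevir.9G250900 at 14 DAS were 0.01, 0.52, 0.37, and 0.52, and none passed. Sevir.8G220300 was the most abundant of all, with 875 ± 354 FPKM in *spp1* and 574 ± 105 FPKM in A10.1 at 14 DAS, far above *SvBM3*.

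The fall with stage was shared by most of this list. Between 10 and 14 DAS, 12 of 15 genes fell in *spp1* and 14 of 15 in A10.1 with an adjusted p under 0.05, beside 1808 of 17902 tested genes in *spp1* and 16.9% in A10.1. The median log2 difference was -0.91 in *spp1* and -1.26 in A10.1, beside 0.05 and 0.13 over all genes. *SvBM1* (-0.80 and -0.999) fell somewhat less than the median in both genotypes, and *SvBM3* (-0.85 and -1.29) lay close to it. The gene without a call in either genotype was the C4H hit Sevir.5G366500, at 0.44 in *spp1* and -0.35 in A10.1. The list holds only genes called between genotypes, and the genotypes also differed in position on the first principal component at 12 and 14 DAS. The shares that fell are therefore descriptions.

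**Figure D4:**
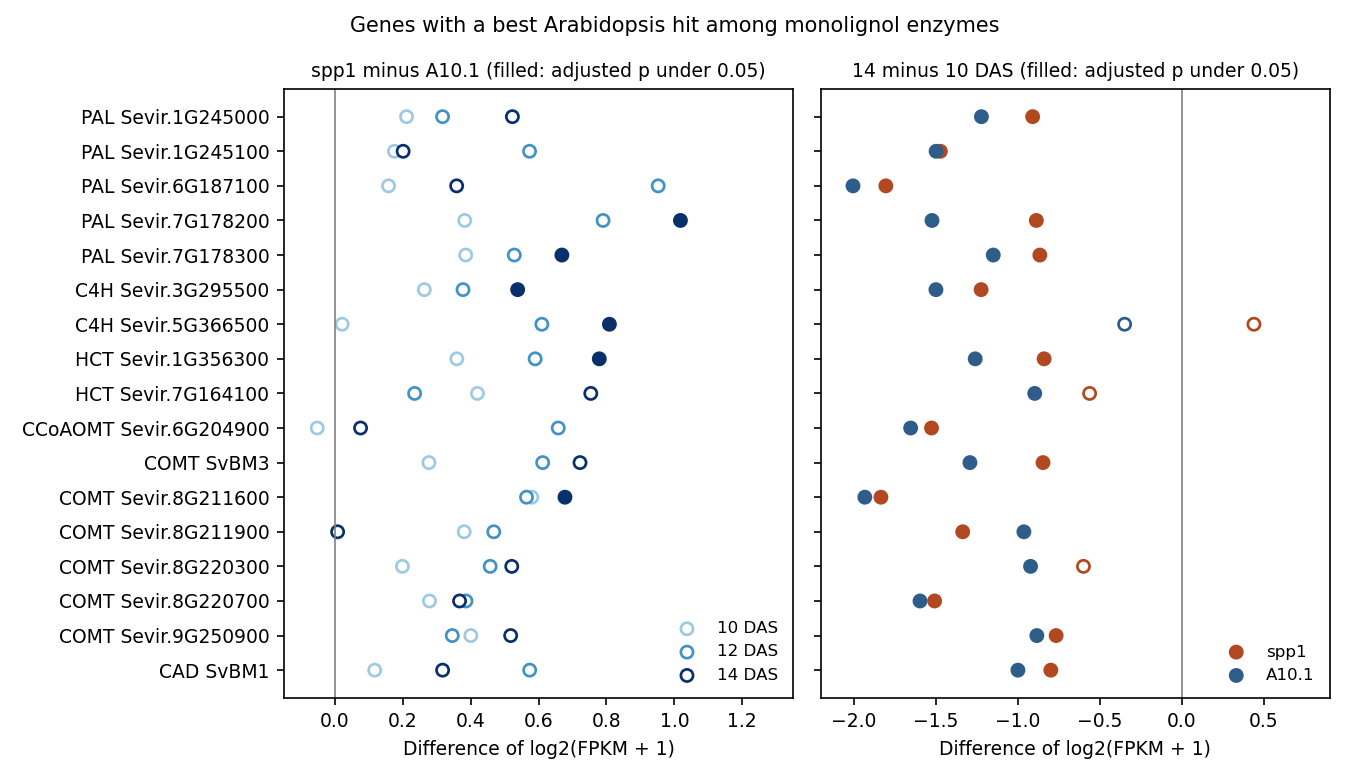
Differences of log2(FPKM + 1) for *SvBM1*, *SvBM3*, and the 15 other genes with a best Arabidopsis hit among enzymes of monolignol synthesis, in the order of the enzyme steps. Left, *spp1* minus A10.1 at 10, 12, and 14 DAS; right, 14 minus 10 DAS in *spp1* and in A10.1; filled circles have an adjusted p under 0.05, 6 of the 15 at 14 DAS on the left and 12 and 14 of the 15 on the right.

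Marker lists of other cells also differed by stage, and their part in the changes of the pair was not tested. Like the pathway list they hold only genes that the authors called on these libraries. Their counts are thus not independent evidence of a direction between genotypes or between stages. The laccase hit LAC11 (Sevir.8G220400), an enzyme that joins monolignols in the wall, fell between 10 and 14 DAS by 2.02 on the log2 scale in *spp1* (adjusted p = 0.000141) and by 2.37 in A10.1 (adjusted p = 3.49e-05). The secondary wall cellulose synthase hit CESA8 (Sevir.5G322300) fell by 0.37 in *spp1* (adjusted p = 0.0230) and by 0.61 in A10.1 (adjusted p = 0.000874). The summed level of both was 14.5 to 24.9, 8.97 to 12.9, and 4.54 to 6.85 FPKM in *spp1* at 10, 12, and 14 DAS, and 11.8 to 20.2, 4.37 to 9.08, and 2.24 to 3.64 FPKM in A10.1. Neither passed between genotypes at any stage. Over the 22 libraries the r of the CESA8 hit was 0.74 with *SvBM1* and 0.88 with *SvBM3*, and 0.12 and 0.38 after subtraction of the group means. The r of the LAC11 hit was 0.61 with *SvBM1* and 0.75 with *SvBM3*, and was negative after that subtraction, at -0.55 and -0.37. No gene of the annotation had a best hit to the listed regulators of the secondary wall.

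Genes of green tissue fell too. The 12 genes for chlorophyll a-b binding proteins, which harvest light in chloroplasts, summed to 3708 to 6287, 3550 to 4358, and 2158 to 3624 FPKM in *spp1* at 10, 12, and 14 DAS, and to 4867 to 5653, 2781 to 3869, and 1581 to 2137 FPKM in A10.1. Between 10 and 14 DAS 10 of 12 fell in *spp1* and 12 of 12 in A10.1, beside 1808 of 17902 tested genes in *spp1* and 16.9% in A10.1. At 14 DAS 1 of 12 passed as higher in *spp1*, beside 0.68% of all genes, with all 12 above 0. The summed level had an r of 0.70 with *SvBM1* and 0.81 with *SvBM3* over the 22 libraries, and of -0.06 and 0.04 after subtraction of the group means. The phloem gene hit APL (Sevir.1G068300) had 3.14 to 5.41 FPKM in *spp1* and 2.99 to 3.89 FPKM in A10.1 at 14 DAS, and did not pass between genotypes or between 10 and 14 DAS. From 10 to 12 DAS its log2 difference was -0.77 in A10.1 (adjusted p = 0.00526 by limma), where 6.37% of all genes passed as lower. In *spp1* it was -0.43 at that step (adjusted p = 0.194).

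The 5 inflorescence genes, matched by maize symbol among the genes that the authors called, are a selected few and stand for no wider set. Of these, 3 were lower in *spp1* at 14 DAS with an adjusted p under 0.05, beside 1.25% of all genes. Between 10 and 14 DAS, 4 of the 4 tested in *spp1* and 5 of 5 in A10.1 rose, where 8.11% of all genes did in *spp1* and 31.4% in A10.1. Their median log2 difference between genotypes was -1.16 at 14 DAS. Percent mapped had an r of -0.53 with *SvBM1* and -0.37 with *SvBM3* over the 22 libraries, and of -0.34 and 0.0055 after subtraction of the group means.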

How the data were processed

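Libraries were prepared with a directional kit and sequenced as paired 100 bp reads. The authors trimmed reads with Trimmomatic, checked them with FastQC, mapped them with TopHat2 and Bowtie2 on the *S. viridis* reference (version 1), and made FPKM values with Cuffdiff; tool versions are not given in the sources used here. FPKM corrects for transcript length and library size, carries no counts, and so allows no counting interval. The percent of reads mapped and the number of mapped first reads per library were also deposited. The tables of called genes hold the authors' own group means, fold changes, test statistics, p-values and q-values, which were not used; only their annotation was.

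Values were analysed as log2(FPKM + 1) in R 4.3.3 with limma 3.58.1 (empirical Bayes with trend), keeping genes whose average over the fitted libraries reached 1 FPKM. Each stage was fitted alone for genotype, the 11 libraries of a genotype together for stage, and all 22 for the interaction. Adjusted p is Benjamini-Hochberg over all genes tested, with a threshold of 0.05. The authors called genes with Cuffdiff at q under 0.05 and listed 166, 810, and 2573 at 10, 12, and 14 DAS. Limma called 5, 51, and 341 at these stages, so the calls of the 2 tests are not alike. A fold is a ratio of geometric means of FPKM + 1 and understates changes of low genes. The samples are pools from separate replicates, in groups by the genotype and stage of the labels. Figures used Python 3.11.15 and matplotlib 3.10.9. Each fit was tested on simulated data.

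Named were the pair, the 5 genes most like each by Pearson r, and pathway genes averaging 5 FPKM or more; exceptions are named in the text. The genes, the lists and the tests were chosen with earlier results of these data known. The reference table matched 0 of the gene IDs, so no sequence or position is given. The alternatives were to drop each library in turn, to block on the replicate number, to fit the 22 libraries at once, to scale by median ratios, to filter at 5 FPKM or not at all, and to use a pseudocount of 0.1.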

Additional observations from a re-analysis of the deposited data

How the results depend on the processing

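Of 444 values of the pair under an alternative, 422 kept their direction and side of the threshold, 13 passed it only under the alternative, and 9 changed sign. At 14 DAS *SvBM3* passed with median ratio scaling (log2 difference 0.82, adjusted p = 0.0299), 1 fit of all 22 libraries (0.72, adjusted p = 0.0322), and the replicate block (0.72, adjusted p = 0.0330). Leaving out each library, its log2 difference ran from 0.61 to 0.86 and its adjusted p from 0.0322 to 0.211. From 10 to 12 DAS in A10.1, *SvBM1* passed with 1 fit of all 22 libraries (-0.82) and the block (-0.80; leaving out each library, -1.06 to -0.62), and *SvBM3* with a mean of at least 5 FPKM (-0.65), scaling (-0.73) and the block (-0.64; -0.77 to -0.48). From 12 to 14 DAS in A10.1, *SvBM3* passed with the block (-0.65; -0.80 to -0.53), and *SvBM1* ran from -0.36 to 0.0063, positive without replicate 1 of 12 DAS. Leaving out each library gave -0.12 to 0.32 for *SvBM1* at 10 DAS (-0.12 without replicate 4 of A10.1, -0.027 without replicate 2 of *spp1*). For *spp1* at 14 DAS against A10.1 at 12 DAS it gave *SvBM1* values from -0.039 to 0.32 (negative without replicate 4 of A10.1) and *SvBM3* from -0.074 to 0.21 (-0.074 without replicate 4 of A10.1, -0.015 and -0.031 without replicates 1 and 2 of *spp1*). For *spp1* at 12 DAS against A10.1 at 10 DAS, *SvBM3* ran from -0.17 to 0.13 (0.13 without replicate 1 of A10.1, 0.088 without replicate 1 of *spp1*). The causes were not tested.

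The replicate numbers are shared by both genotypes, but the labels do not say what they mark. Deviations of same-numbered libraries correlated at 0.30, 0.22, 0.19, and 0.07 at 14 DAS, where replicate 4 of *spp1* was closer to replicate 3 of A10.1 (0.48). They correlated at 0.02, 0.35, and 0.12 at 12 DAS, and at 0.23, -0.06, 0.0094, and 0.17 at 10 DAS. At each stage some same-numbered libraries were above the minimum of 0.1 set for pairing and some below. The numbers were not taken to pair the libraries. The block moved the count of called genes at 12 DAS to 256, against 51 without it, and that at 10 DAS to 2, against 5. Over the other alternatives the counts at 10, 12, and 14 DAS, 5, 51, and 341 genes, ran from 1 to 42, 6 to 93, and 265 to 1559. Leaving out each library they ran from 2 to 5, 9 to 81, and 65 to 574. Between 10 and 14 DAS the counts were 3260 in *spp1* (2381 to 5369 leaving out each library) and 8645 in A10.1 (6841 to 9410). With scaling the share of called genes that were higher was 57.3% at 14 DAS, against 35.2% without it, and 47.5% between 10 and 14 DAS in A10.1, against 65%; the fall of the pair there kept its call (-1.13 and -1.42), and the median of all genes moved to 0.01 from 0.13. FPKM carries no counts, so the limit set by depth was not computed.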
